A study of Mus musculus with 4 samples.

Results

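Krt7, Krt8, Krt18 and Krt19 encode the keratins of simple, single-layered epithelium, and in the mammary gland they mark the luminal cells that line the ducts. These 4 genes were chosen by name and are described here among 21887 protein-coding genes whose reads were counted. Open chromatin over and around them was compared between luminal and basal nuclei of the adult mammary gland of the mouse and between the classes of nuclei in the fetal gland.

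Keratin filaments are built from pairs of a type II and a type I keratin. Krt7 and Krt8 encode type II keratins, and Krt18 and Krt19 encode type I keratins. Keratin 8 pairs mainly with keratin 18 and is among the first keratins of the embryo. Keratin 7 is typical of ducts and glands, and keratin 19 is a short keratin that lacks most of the tail. Basal cells of the mammary gland are instead known for keratins 5 and 14, although embryonic mammary cells are known to carry luminal and basal keratins together.

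The assay was ATAC-seq of single nuclei, in which the Tn5 transposase cuts open chromatin and each nucleus is known by its barcodes. The mice were wild-type CD1, an outbred strain, and mammary epithelium was isolated by a sort for EpCAM and against lineage markers. Per the labels the fetal gland was taken at embryonic day 18 and the adult gland at 8 weeks, with 2 biological replicates a stage. Tagmentation used 16 wells for each fetal and 32 wells for each adult replicate, and the number of animals behind a replicate is not stated in the labels. The 4 libraries held 882 to 2804 listed nuclei and 6028168 to 19304830 reads in those nuclei, the fetal replicate 1 library being the smallest by both, and no barcode was shared between libraries. The 7846 nuclei carried a class from 1 to 14 in the authors' deposited table, with no names.

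Classes were named from fixed markers that include no keratin, a marker being raised when its log2 level exceeded the mean of the other classes by at least 0.5. Classes 1 and 8 each had 7 of 8 basal markers raised, classes 3 and 7 had 7 of 8 luminal progenitor markers, and classes 2 and 11 had 7 and 6 of 8 mature luminal markers. These pairs are called adult basal, adult luminal progenitor (LP) and adult mature luminal (ML), with 335 and 715, 921 and 805, and 1002 and 1074 adult nuclei in replicates 1 and 2. The fetal nuclei fell mainly into classes 9 (385 and 652 nuclei), 5 (201 and 337), 4 (132 and 338) and 12 (92 and 247). Fetal class 4 had 5 of 8 basal markers, 2 of 8 LP markers and 2 of 4 epidermal markers (Ivl and Dsg1a, also raised in adult basal class 8) raised, fetal class 9 had 5 of 8 LP markers and no basal marker, and fetal class 5 had 4 of 8 LP markers. Their markers set them less far apart than the adult groups, so they are kept as numbers here. Fetal class 12 (3 of 8 basal markers), and classes 10, 13 and 14, stayed unnamed. Class 6 had all 6 stromal markers raised, with 3 of 3 adipocyte, 2 of 4 endothelial and 2 of 4 immune markers. It serves as the non-epithelial background, one of mixed markers.

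The 4 genes lie at 2 places in the genome (mm10, RefSeq annotation GRCm38.p6). Krt7 spans chr15:101412403-101427806, Krt8 chr15:101996711-102004342 on the minus strand, and Krt18 chr15:102028216-102032026. Krt18 is a type I gene that sits beside the type II gene Krt8, 23873 bases away and head to head with it. Krt19 spans chr11:100140810-100145926 and was read here as a minus-strand gene, its strand being known background and not given in the tables used. Reads were counted over each span with 2000 bases on either side, and the window of Krt8 shares bases with the span of Krt78, so that such reads were counted for both genes.

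The RefSeq promoter table (GRCm38.p6) held 3 of the 4 genes. Their promoters are shown because the start regions of these 3 genes passed the main test between adult LP and basal nuclei. Those calls were not kept in every alternative fit, as given with the promoter regions below. Each line runs from 250 bases before the annotated start to 30 bases from it onward, 5′ to 3′ on the strand of the gene. Capitals mark letters that matched one of 9 motifs searched on both strands. These were TATAAA of the TATA box, CCAAT of the box of that name, GGGCGG of the GC box, TGANTCA of AP-1 factors, GATAA of GATA factors, CCGGAAG of ETS factors, TGTTTAC of forkhead factors, AACCNGTT of grainyhead factors and GCCNNNGGC of AP-2 factors.
Krt7: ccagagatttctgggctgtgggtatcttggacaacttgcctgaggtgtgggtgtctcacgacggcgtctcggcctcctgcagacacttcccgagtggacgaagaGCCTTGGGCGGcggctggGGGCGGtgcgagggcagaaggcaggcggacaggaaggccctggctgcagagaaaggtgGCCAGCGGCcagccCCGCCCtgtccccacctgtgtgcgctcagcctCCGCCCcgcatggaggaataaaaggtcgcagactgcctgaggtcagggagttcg
Krt8: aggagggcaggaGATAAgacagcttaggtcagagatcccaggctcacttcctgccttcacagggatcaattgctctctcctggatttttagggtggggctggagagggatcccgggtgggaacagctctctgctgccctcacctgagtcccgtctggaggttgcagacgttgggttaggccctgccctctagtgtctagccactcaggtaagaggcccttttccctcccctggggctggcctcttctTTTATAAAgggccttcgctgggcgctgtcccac
Krt18: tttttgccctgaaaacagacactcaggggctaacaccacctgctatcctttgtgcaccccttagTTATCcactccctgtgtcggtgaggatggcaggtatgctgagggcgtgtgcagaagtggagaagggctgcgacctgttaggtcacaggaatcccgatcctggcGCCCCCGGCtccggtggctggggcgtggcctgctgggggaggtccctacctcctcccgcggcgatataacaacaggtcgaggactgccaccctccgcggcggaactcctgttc
The stretches are chr15:101412153-101412432 for Krt7, chr15:102004313-102004592 for Krt8 and chr15:102027966-102028245 for Krt18. The Krt7 promoter held GGGCGG 4 times and GCCNNNGGC 2 times, with 1 overlap between them. GGGCGG was present in 34.7% and GCCNNNGGC in 15.4% of 32851 promoters of this length. The Krt8 promoter held TATAAA (13.1% of promoters) on both strands in overlapping letters across the annotated start, and GATAA (24.4% of promoters) once. The Krt18 promoter held GATAA once, on the opposite strand, and GCCNNNGGC once. GC content was 65.7% for Krt7, 58.6% for Krt8 and 61.4% for Krt18, against a median of 52.5% over all promoters. No motif was shared by all 3 promoters, and a match describes letters and not a bound site.

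Across the classes, all 4 windows were most open in adult luminal nuclei, but the leading class differed between genes. Levels are RPM (reads per 1000000 reads of that class and library) divided by the length of the window in kb, with replicate 1 first, for classes with at least 50 nuclei in a library. Krt8 was highest in LP class 7, at 17.8 and 14.7, and Krt18 had its highest mean there too, at 10.3 and 8.12, overlapping LP class 3 (5.72 and 9.65). Krt7 was highest in ML class 2, at 7.96 and 6.19. Krt19 was highest in ML class 2 by its mean, at 7.28 and 8.69, but LP class 3 (7.86 and 7.78) and LP class 7 (6.99 and 8.29) overlapped it. The order was therefore flat at the top for Krt19 and Krt18, and for Krt8 the unnamed class 10 (15.3 and 9.26) overlapped class 7. For Krt7, class 2 lay above every value of the other classes in either library.

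The lowest levels marked a floor that was not 0 for every gene. In the stromal-marker class 6 the 2 adult libraries gave 0.814 and 1.19 for Krt8, 0.00 and 1.07 for Krt7 and 2.60 and 1.71 for Krt19. Krt18 had 0 reads there in either library, where 3 reads would have given levels of 0.909 and 0.664. Krt19 in class 6 was within the range of the adult basal classes 1 (2.70 and 1.29) and 8 (2.59 and 2.13), so its basal level was not above this background. Krt7 in class 6 was below the basal classes 1 (1.39 and 0.734) and 8 (0.947 and 0.815) in replicate 1 and above both in replicate 2, so its basal level was not clear of this background either. Krt8 in the basal classes 1 (2.62 and 5.07) and 8 (3.50 and 2.55) lay above class 6 in both libraries. Of the smaller classes, fetal class 13, with only fetal replicate 2 above 50 nuclei, gave 4.13 for Krt7 and 5.38 for Krt19. In fetal replicate 1, with 40 nuclei of that class, Krt7 had 2.46 and Krt19 had 0 reads, where 3 reads would have given 1.12, so the Krt19 value was not shared by the libraries.

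**Figure D1:**
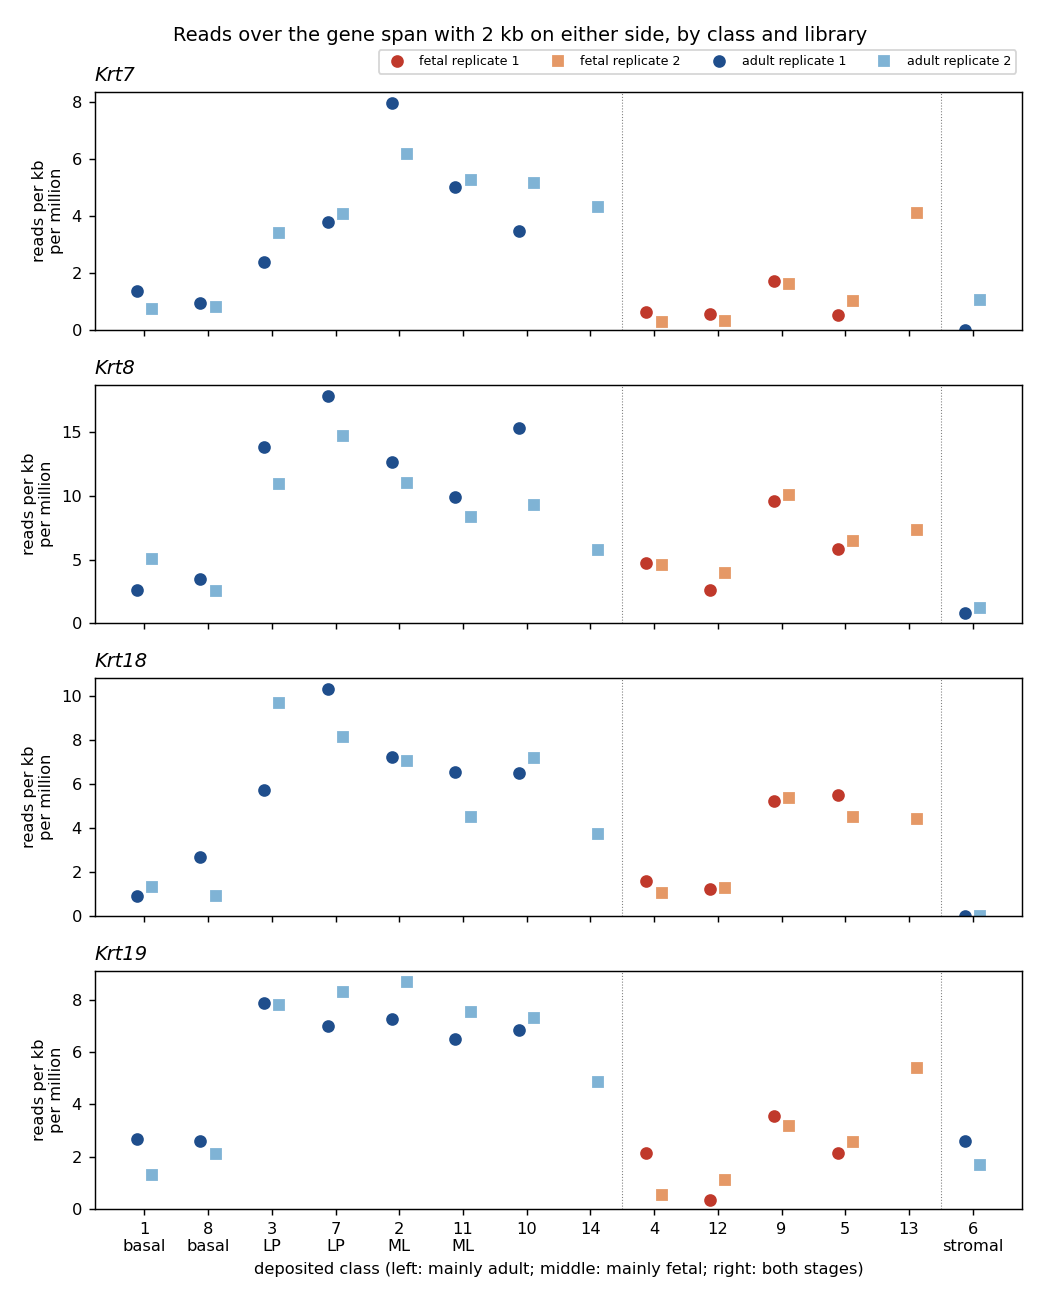
Reads over each gene window (y axis, RPM per kb) in the 14 deposited classes (x axis), 1 point per library, for class and library pairs with at least 50 nuclei; circles are replicate 1 and squares replicate 2, blue adult and red or orange fetal. Adult luminal classes 3, 7, 2 and 11 sit above basal classes 1 and 8 in both libraries for every gene, and Krt8 reaches 17.8 in class 7.

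Adult luminal and basal nuclei were compared first, to measure how far the chromatin of each gene is specific to the luminal side. Of the 4 genes, 4 were higher in LP than in basal nuclei, where 10.1% of the 17085 genes tested were higher and 22.6% differed in either direction (edgeR quasi-likelihood test, Benjamini-Hochberg adjusted p under 0.05). All 4 were also higher in ML than in basal nuclei, where 15.6% of genes were higher and 32.5% differed. The median log2 fold change of the 4 genes was 1.86 for LP and 1.97 for ML against basal, beside 0.01 and 0.02 over all genes tested.

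Among the type II genes, Krt8 gave 3.03 and 3.83 in the 2 adult libraries of basal nuclei, 16.4 and 12.9 in LP and 11.99 and 9.93 in ML nuclei. Every luminal value exceeded every basal value, and the lowest luminal value was still above the highest basal one by more than the gap between replicates. The log2 fold change was 1.90 (SE 0.16) for LP (adjusted p = 5.16e-16) and 1.48 (SE 0.16) for ML (adjusted p = 3.90e-12). Krt7, the ductal type II keratin, gave 1.18 and 0.774 in basal, 3.31 and 3.75 in LP and 7.29 and 5.83 in ML nuclei. The 3 groups did not overlap and rose in that order. Its log2 fold change was 1.81 (SE 0.23) for LP (adjusted p = 1.98e-09) and 2.69 (SE 0.23) for ML (adjusted p = 1.19e-16).

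Among the type I genes, Krt18, the partner of Krt8, gave 1.74 and 1.12 in basal, 8.70 and 8.86 in LP and 7.04 and 6.02 in ML nuclei. It had the largest LP difference of the 4 genes, with a log2 fold change of 2.58 (SE 0.26, adjusted p = 2.50e-13), and 2.14 (SE 0.26) for ML (adjusted p = 1.02e-10). Krt19 gave 2.65 and 1.70 in basal, 7.29 and 8.04 in LP and 7.10 and 8.23 in ML nuclei, so that both luminal groups lay above basal and covered much the same range. Its log2 fold change was 1.79 (SE 0.26) for LP (adjusted p = 4.85e-08) and 1.79 (SE 0.26) for ML (adjusted p = 2.01e-08). The classes were made by the authors from the same reads, so these p-values between classes are not independent of how nuclei were assigned.

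Mature luminal nuclei differed from LP nuclei in opposite directions for the 2 type II genes. Krt7 was higher in ML, with a log2 fold change of 0.88 (SE 0.18, adjusted p = 1.03e-04), and Krt8 was lower, at -0.42 (SE 0.14, adjusted p = 0.0173), beside 22.0% of genes called either way. Krt18 had a value of -0.43 (SE 0.19) that did not pass (adjusted p = 0.103), and Krt19 one of 0.00 (SE 0.21, adjusted p = 0.994). Krt18 did pass, as lower in ML, without fetal replicate 1 (-0.44, adjusted p = 0.0352), without fetal replicate 2 (-0.43, adjusted p = 0.0315) and with fetal classes 4 and 12 and classes 9 and 5 joined (-0.44, adjusted p = 0.0352). For Krt8 the ML values of 11.99 and 9.93 lay below the LP values of 16.4 and 12.9, with no overlap but a narrow gap. Its call was lost with either adult library left out (-0.34, adjusted p = 0.44 without adult replicate 1 and -0.48, adjusted p = 0.166 without adult replicate 2) and with DESeq2 (adjusted p = 0.0913). It was also lost with only classes 3, 8 and 11 standing for the adult groups, those with fewer reads in promoter regions (-0.44, adjusted p = 0.112). Krt7 kept its direction but lost its call without adult replicate 1 (0.67, adjusted p = 0.25).

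In the fetal gland the contrast between classes 9 and 4 was compared in the same way. Of the 4 genes, 4 were higher in class 9, where 2.82% of genes were higher, 4.88% lower and 7.7% differed. Krt7 gave 0.637 and 0.298 in class 4 and 1.74 and 1.61 in class 9, a log2 fold change of 1.95 (SE 0.32, adjusted p = 7.61e-06). Krt8 gave 4.69 and 4.54 and 9.55 and 10.0, a log2 fold change of 0.98 (SE 0.17, adjusted p = 3.08e-05). For both type II genes the 2 classes did not overlap, and the Krt8 level in class 4 lay closer to class 9 than the Krt7 level did as a ratio.

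For the type I genes, Krt18 gave 1.58 and 1.07 in fetal class 4 and 5.24 and 5.37 in class 9, a log2 fold change of 1.97 (SE 0.29, adjusted p = 9.49e-07). Krt19 gave 2.15 and 0.529 and 3.56 and 3.18, a log2 fold change of 1.61 (SE 0.34, adjusted p = 5.44e-04). The Krt19 values of class 4 differed by far more between the libraries than those of class 9, and rested on 19 and 15 reads. Without fetal replicate 2 the log2 fold change of Krt19 was 0.60, adjusted p = 0.455, and that of Krt7 was 1.32, adjusted p = 0.0669, so both calls were lost. With DESeq2 Krt19 did not pass (1.35, adjusted p = 0.249), and with the flanks left out of the window Krt8 did not (0.62, adjusted p = 0.108).

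The other fetal classes split the genes. In class 5 Krt18 gave 5.49 and 4.52, on either side of the class 9 values, and Krt8 gave 5.84 and 6.44, below both class 9 values. Of the 4 genes, 1, Krt8, was lower in class 5 than in class 9 (-0.72, SE 0.16, adjusted p = 0.0085), beside 0.685% of genes called either way, 0.626% lower and 0.0585% higher. Krt7 had a value of -0.98 (SE 0.27, adjusted p = 0.0575), Krt19 one of -0.49 (SE 0.28, adjusted p = 0.62) and Krt18 one of -0.16 (SE 0.23, adjusted p = 0.905). The Krt8 call was lost without fetal replicate 1 (-0.69, adjusted p = 0.119), without fetal replicate 2 (-0.76, adjusted p = 0.136) and with only classes 3, 8 and 11 standing for the adult groups (-0.72, adjusted p = 0.0527). Krt7 did pass without the low-count filter (-0.98, adjusted p = 0.0257) and without fetal replicate 2 (-1.70, adjusted p = 0.0476). In the unnamed class 12 the levels were 0.573 and 0.331 for Krt7, 2.59 and 3.95 for Krt8, 1.22 and 1.29 for Krt18 and 0.348 and 1.11 for Krt19. The Krt8 values there lay below both class 4 values (4.69 and 4.54), with no test run.

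The stages were then compared. Fetal and adult nuclei came from different libraries, with 16 and 32 tagmentation wells for each replicate, so stage and library preparation cannot be told apart. All 4 genes were lower in fetal class 9 than in adult LP nuclei, where 4.52% of genes were lower and 9.53% differed. The log2 fold change was -1.21 (SE 0.26) for Krt19 (adjusted p = 0.00221) and -1.10 (SE 0.22) for Krt7 (adjusted p = 0.00109). For the Krt8 and Krt18 pair it was smaller, -0.59 (SE 0.16) for Krt8 (adjusted p = 0.0183) and -0.74 (SE 0.20) for Krt18 (adjusted p = 0.0153). As levels, Krt19 had a mean of 3.37 ± 0.267 (SD, n = 2) in fetal class 9 and 7.67 ± 0.530 (SD, n = 2) in adult LP, and Krt8 had 9.79 ± 0.343 (SD, n = 2) and 14.7 ± 2.53 (SD, n = 2). For each of the 4 genes both fetal values lay below both adult values.

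How firmly these stage differences stand depends on the gene. Krt19 and Krt7 stayed called with each library left out in turn. Krt18 lost its call with any 1 of the 4 libraries left out (adjusted p from 0.0729 to 0.141), and Krt8 lost it without adult replicate 1 (-0.43, adjusted p = 0.287), fetal replicate 1 (-0.53, adjusted p = 0.148) or fetal replicate 2 (-0.66, adjusted p = 0.0833). With only class 3 standing for adult LP (and only classes 8 and 11 for the other adult groups), 1 of the 4 genes, Krt19, stayed called (-1.31, adjusted p = 0.00702). Far fewer of all genes were called in that fit too, as the closing section gives, so a lost call there does not show a lost difference. Class 3 had 21.0% of its reads in promoter regions, class 7 27.1% and class 9 23.0%, and the part of this share in the stage differences was not tested.

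Fetal class 4 and adult basal nuclei differed less clearly. Of the 4 genes, 1, Krt7, was lower in fetal class 4 (-1.23, SE 0.36, adjusted p = 0.0324), beside 8.46% of genes called either way, 3.89% higher and 4.58% lower. The Krt7 levels of adult basal nuclei and of fetal class 4 (0.637 and 0.298) were not clear of the adult class 6 background (0.00 and 1.07). The same held for Krt19, with 2.65 and 1.70 in adult basal nuclei, 2.15 and 0.529 in fetal class 4 and 2.60 and 1.71 in class 6. The call was lost without fetal replicate 2 (-0.57, adjusted p = 0.505), without adult replicate 1 (-0.98, adjusted p = 0.216) and with only class 8 as adult basal (-1.23, adjusted p = 0.102). Krt8 had 4.69 and 4.54 in fetal class 4 against 3.03 and 3.83 in adult basal nuclei, with both fetal values above both adult ones but a log2 fold change of 0.39 (SE 0.21) that did not pass (adjusted p = 0.271). Krt18 had -0.13 (SE 0.34, adjusted p = 0.859) and Krt19 -1.05 (SE 0.41, adjusted p = 0.111), with overlapping levels. For Krt19 the sign rested on fetal replicate 2, without which the value was 0.03, adjusted p = 0.983, and the call appeared without fetal replicate 1 (-1.93, adjusted p = 0.0269), without the low-count filter (-1.06, adjusted p = 0.037), without flanks (-1.76, adjusted p = 0.025) and with fetal classes 4 and 12 joined (-1.13, adjusted p = 0.0172).

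Whether the gap between fetal classes 9 and 4 differed from that between adult LP and basal nuclei was tested as an interaction, the fetal gap minus the adult one. Of the 4 genes, 1, Krt8, had a smaller gap in the fetus, by -0.92 (SE 0.24) on the log2 scale (adjusted p = 0.00906), beside 5.16% of genes called either way and 2.11% with a smaller and 3.06% with a larger value in the fetus. The gap of Krt8 was 0.98 in the fetus and 1.90 in the adult. The difference of gaps was -0.61 (SE 0.41) for Krt18 (adjusted p = 0.526), 0.14 (SE 0.41) for Krt7 (adjusted p = 0.926) and -0.17 (SE 0.45) for Krt19 (adjusted p = 0.912), none of which passed, which does not show that their gaps were alike. The Krt8 call was lost without adult replicate 1 (-0.65, adjusted p = 0.437) and with only classes 3 and 8 standing for the adult groups (-0.91, adjusted p = 0.14), while without the flanks the value was -1.41, adjusted p = 0.00534.

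The markers moved with this gap. The summed level of the 8 basal markers, per kb of their windows together, was 0.709 and 0.791 in fetal class 4 and 0.523 and 0.505 in fetal class 9, against 1.49 and 1.38 in adult basal and 0.433 and 0.456 in adult LP nuclei. The summed level of the 8 LP markers was 0.785 and 0.745 in fetal class 4 and 1.30 and 1.22 in class 9, against 0.407 and 0.492 and 1.86 and 1.81 in the adult groups. Both lists were thus less far apart in the fetus, and their part in the Krt8 result was not tested. The Krt78 window, which shares bases with that of Krt8, moved the same way, with a difference of gaps of -0.77 (SE 0.21, adjusted p = 0.0138).

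**Figure D2:**
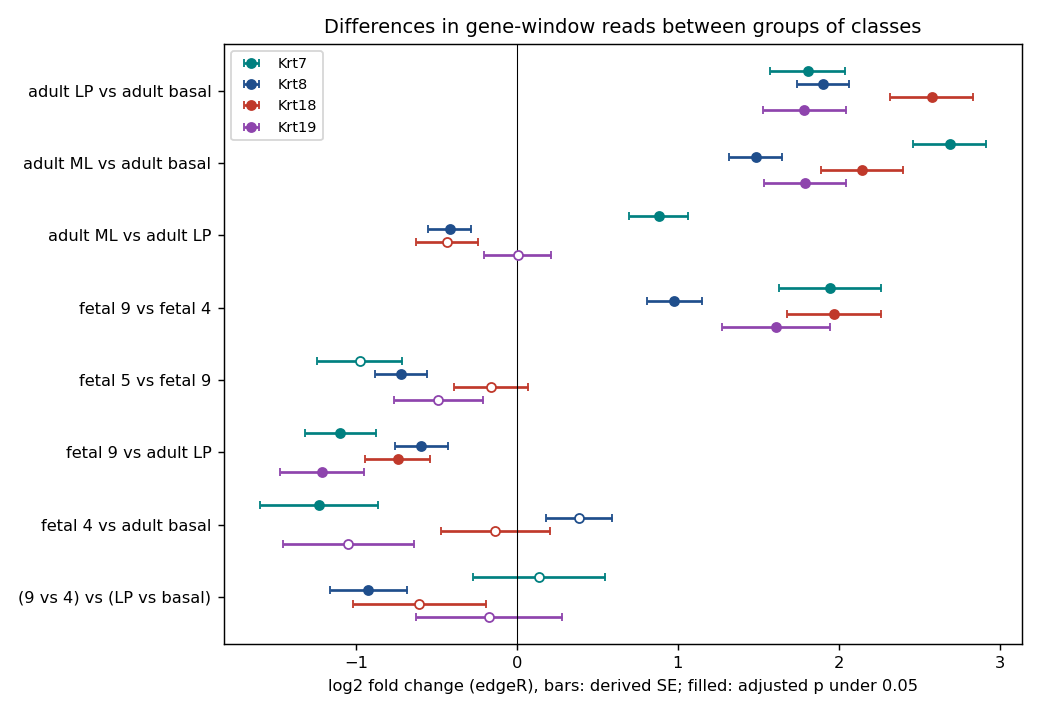
Log2 fold change of gene-window reads (x axis) for Krt7, Krt8, Krt18 and Krt19 in 8 comparisons (y axis); points are edgeR estimates from 14 sums of reads, bars are the derived SE, and filled points passed an adjusted p under 0.05. All 4 genes are to the right in the 2 adult luminal against basal comparisons and in fetal 9 against fetal 4, and all 4 are to the left in fetal 9 against adult LP.

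The read profiles around the gene starts reach beyond the windows over which the levels were counted. In adult LP nuclei the 250 bases just before the annotated start were among the 5 highest bins of each gene, with 24.3 and 19.8 RPM for Krt8, 10.9 and 8.75 for Krt7, 9.59 and 7.58 for Krt18 and 11.9 and 14.4 for Krt19. Krt18 had its highest bin of LP nuclei past its end, 6000 bases from the start, at 14.5 and 12.1. Krt19 had its highest one before its start, at -8250 bases, with 14.9 and 15.4. Both bins lie outside the counted windows of their genes.

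Krt7 had a further peak inside the gene that set ML nuclei apart. In the bin that begins 2500 bases after its start, ML nuclei had 15.1 and 13.7 RPM, LP nuclei 0.426 and 0.194 and basal nuclei 1.24 and 0.00, and fetal class 9 had 3.17 and 2.55. The ML values lay above every value of the other groups, a difference seen in the profile and not tested.

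**Figure D3:**
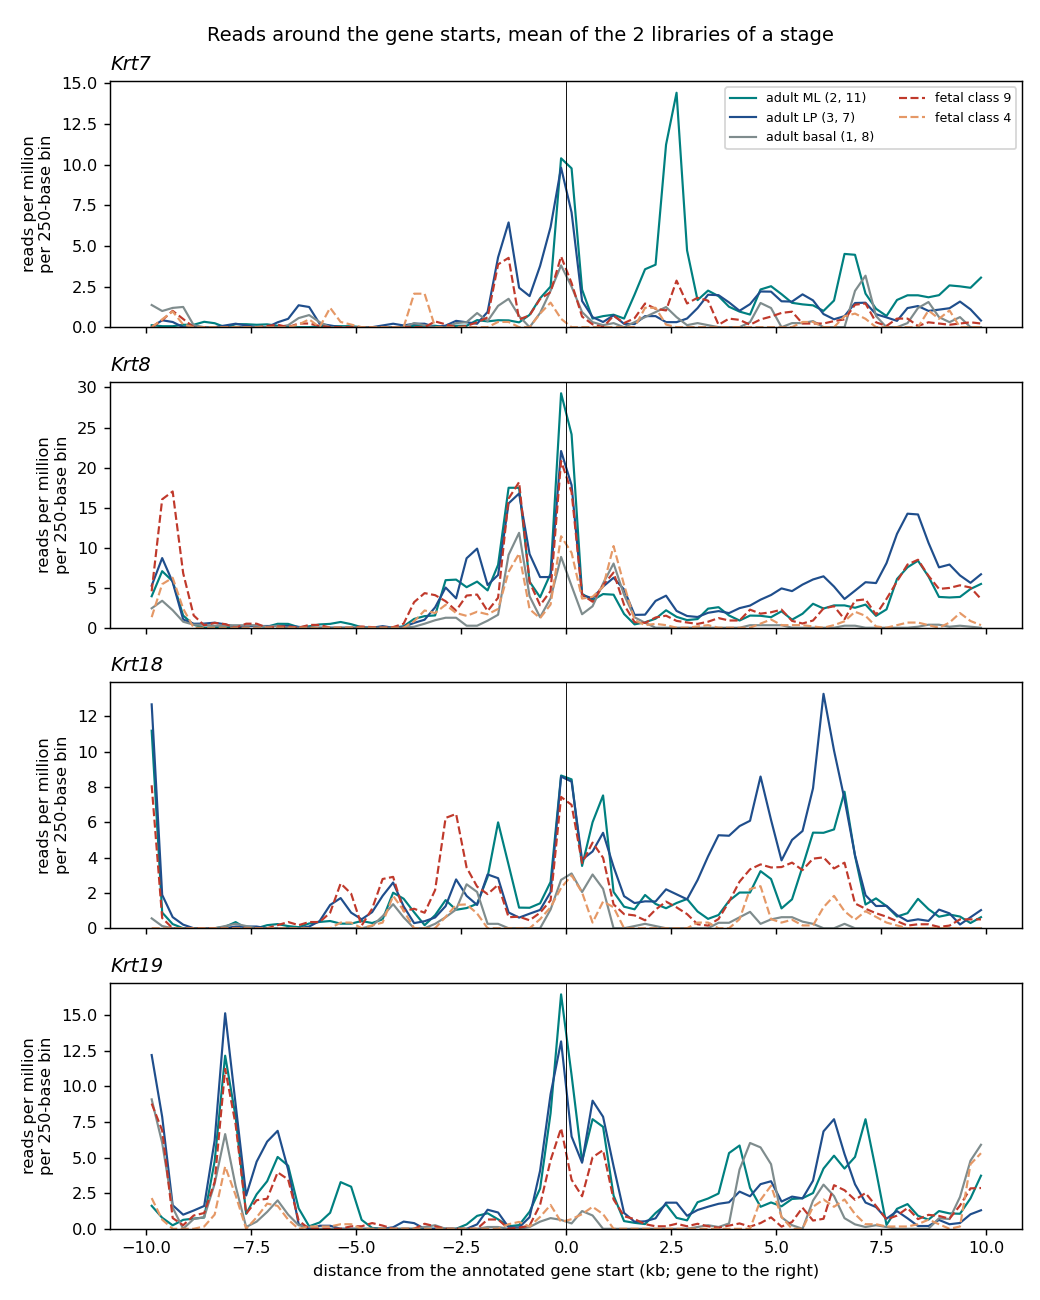
RPM in 250-base bins (y axis) from 10 kb before to 10 kb after the annotated start of each gene (x axis, gene to the right), each line the mean of the 2 libraries of a stage for 1 group of classes. The start of Krt8 is a peak in every group, while the reads behind its 3′ end, at 8 to 9 kb, are high in adult LP and near 0 in adult basal nuclei.

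The deposited promoter list had 7 regions in the 4 windows, 6 of which had enough reads to be tested. In LP against basal nuclei 4 of the 6 were higher, beside 7.12% of 13661 promoter regions called either way and 3.14% higher and 3.97% lower. None of the 6 passed in fetal class 9 against class 4 (background 0.278%, 0.176% higher and 0.102% lower), in fetal class 9 against adult LP (3.66%, 2.2% higher and 1.46% lower) or in fetal class 4 against adult basal nuclei (2.24%, 1.22% higher and 1.02% lower). At an unadjusted p under 0.05, 5, 1 and 2 of the 6 were below the threshold in these 3 comparisons, beside 9.40%, 14.9% and 15.3% of all promoter regions tested, and DESeq2 called 0 of the 6 in each at an adjusted p under 0.05. In LP against basal nuclei 0 of 6 were called without adult replicate 1, without adult replicate 2 or with DESeq2. The DESeq2 estimates of the 4 called regions were 1.42, adjusted p = 0.15 at the Krt7 start, 1.07, adjusted p = 0.085 at the Krt8 start, 1.44, adjusted p = 0.118 at the Krt18 start and 2.08, adjusted p = 0.0996 inside Krt18, beside 1.41, 1.04, 1.46 and 2.08 with edgeR. Without fetal replicate 1 the Krt7 start region was called lower in fetal class 9 than in adult LP (-1.72, adjusted p = 0.0145).

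The region over the Krt8 start, chr15:102003776-102004775, had reads in every group. It gave 19.6 and 17.1 in fetal class 4, 29.6 and 25.5 in fetal class 9, 9.91 and 13.8 in adult basal, 31.5 and 26.4 in adult LP and 42.8 and 31.0 in adult ML nuclei. Among these 5 groups adult basal nuclei had the lowest values and fetal class 4 lay between them and the luminal groups, while the unnamed fetal class 12 gave 3.18 and 18.8, a range that spans both. It was higher in adult LP than in basal nuclei (1.04, SE 0.30, adjusted p = 0.0211), and the fetal comparison had a value of 0.39 (SE 0.31, adjusted p = 0.755). The region over the Krt18 start, chr15:102027570-102028569, gave 6.19 and 3.00 in adult basal and 15.1 and 11.1 in adult LP nuclei (1.46, SE 0.46, adjusted p = 0.0401), and 5.15 and 4.50 in fetal class 4 and 12.7 and 10.5 in fetal class 9, a difference that did not pass (adjusted p = 0.515). The adult LP values of this region lay above the basal ones, and the fetal class 9 values above those of class 4, without overlap.

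Krt7 had a start region, chr15:101411743-101412742, with 5.57 and 5.01 in adult basal, 16.8 and 15.2 in LP and 19.1 and 10.4 in ML nuclei, higher in LP than in basal nuclei (1.41, SE 0.46, adjusted p = 0.0464). Fetal class 9 gave 9.52 and 4.51 there and fetal class 4 2.06 and 1.29, on 2 and 4 reads. Another Krt7 region before the start, chr15:101410373-101411372, gave 9.80 and 7.39 in LP and 1.22 and 1.22 in ML nuclei, the reverse order of the gene window as a whole, though ML against LP was not tested on regions. Krt19 had no region of the promoter list over its start. Its start lay in a region of the distal list, chr11:100145473-100146472, and the only promoter-list region in its window, chr11:100147113-100148112, had 71 reads in all and was not tested.

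Within 50 kb of the 4 spans the distal list had 80 regions, 26 nearest to Krt7, 18 to Krt8, 19 to Krt18 and 17 to Krt19, and 52 of them were tested. In LP against basal nuclei 24 of the 52 were called and all 24 were higher, beside 24.5% of 39090 distal regions called either way and 13.0% higher. In fetal class 9 against class 4, 8 of 52 were called, all higher, beside 3.99% called, 2.06% higher and 1.93% lower. In fetal class 9 against adult LP, 8 were called, 1 higher and 7 lower, beside 14.2% called, 6.29% higher and 7.88% lower, and in fetal class 4 against adult basal nuclei 4 were called, 1 higher and 3 lower, beside 8.89% called, 4.19% higher and 4.69% lower. In each of these comparisons fewer of the 52 were called with any library of a compared group left out. Without the low-count filter 3 were called in fetal class 9 against adult LP and 1 in fetal class 4 against adult basal nuclei. The calls over all distal regions also changed in such fits, as the closing section gives, so these numbers are not set against a background here. The called share in LP against basal nuclei was 7 of 10 for Krt18, 7 of 11 for Krt19, 7 of 16 for Krt8 and 3 of 15 for Krt7.

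The most read of these regions, chr15:102016954-102017953, lies between Krt8 and Krt18, within the predicted gene Gm41404. It gave 10.5 and 10.3 in adult basal, 45.2 and 41.4 in LP and 44.0 and 38.4 in ML nuclei, and 10.3 and 5.15 in fetal class 4, 40.6 and 41.8 in class 9 and 41.1 and 42.8 in class 5. The luminal, class 9 and class 5 values ranged from 38.4 to 45.2, and the basal and class 4 values from 5.15 to 10.5, with no overlap. The log2 fold change was 1.98 (SE 0.30) in the adult (adjusted p = 6.61e-09) and 2.49 (SE 0.35) in the fetus (adjusted p = 5.15e-09). Fetal class 9 against adult LP had a value of -0.17 (SE 0.25, adjusted p = 0.723), where the 2 genes themselves were lower in the fetus.

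The other regions around Krt8 and Krt18 are given next. The region behind the 3′ end of Krt8, chr15:101995237-101996236, which lies within the Krt78 span, had 0 and 4 reads in adult basal nuclei and levels of 34.7 and 25.3 in LP nuclei, the largest change of the called Krt8 regions (5.22, SE 0.62, adjusted p = 2.38e-14), and rose from 0.00 and 2.90 in fetal class 4 to 19.0 and 17.9 in class 9 (3.01, SE 0.57, adjusted p = 7.37e-05). Between the stages it did not pass, at -0.80 (SE 0.36) in fetal class 9 against adult LP (adjusted p = 0.125) nor in fetal class 4 against adult basal nuclei (adjusted p = 0.35). The region before the Krt8 start, chr15:102013264-102014263, was the only one near the 4 genes called higher, of 14 with a positive estimate, in fetal class 9 (34.9 and 17.6) than in adult LP nuclei (11.7 and 12.8; 0.95, SE 0.34, adjusted p = 0.0467), and fetal class 5, at 33.1 and 20.0, and fetal class 12, at 25.4 and 15.1, also lay above both LP values there. Behind Krt18, chr15:102034092-102035091 had levels of 26.4 and 19.4 in adult LP and 6.35 and 11.9 in fetal class 9 (-1.36, SE 0.41, adjusted p = 0.0135), and 0 and 2 reads in adult basal nuclei. Farther on, chr15:102045780-102046779, within the predicted gene Gm41405, had 26.2 and 17.7 in adult LP and 5.64 and 9.91 in fetal class 9 (-1.53, SE 0.45, adjusted p = 0.0102). These 3 stage calls held without fetal replicate 2 and were lost without any 1 of the other libraries. Without adult replicate 1 the adjusted p was 0.402 for the region before Krt8 and 0.239 and 0.253 for the pair behind Krt18, and without fetal replicate 1 it was 0.481, 0.103 and 0.0681, with adult replicate 2 left out giving 0.149, 0.105 and 0.0949. The region before Krt8 was also lost with DESeq2 (adjusted p = 0.102) and with replicate numbers as a block (adjusted p = 0.0515). Without the low-count filter all 3 calls were lost, with an adjusted p of 0.25 for the region before Krt8 and 0.0976 and 0.0719 for the pair behind Krt18.

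Some regions had no reads at all in one group. Inside Krt18, chr15:102030419-102031418 had 0 reads in adult basal and 61 in adult LP nuclei. That is 11.6-fold higher in LP when basal is set to a floor of 3 reads over the group. The floor treats reads as independent and takes the other count without error, so the folds given here are no firm lower bounds. The regions of this paragraph were also named for having the largest called change in a comparison. Past Krt18, chr15:102053381-102054380 had 0 reads in adult basal, 38 in adult LP and 18 in fetal class 4 nuclei. Fetal class 4 was thus 8.25-fold higher than adult basal nuclei on the same floor (adjusted p = 0.00305). The floor does not cover the spread between libraries, and the deposited reads carry no molecular identifiers. In the promoter regions of the windows a count of 2 reads was more common than a count of 1, so reads may not be independent. A floor of 3 reads may then be too low and these folds too large. Before Krt7, chr15:101382470-101383469 had 0 reads in fetal class 4 and 43 in fetal class 9, 6.16-fold higher in class 9 on that floor (adjusted p = 0.0371). Its adult basal level of 7.43 and 1.00 differed widely between libraries. These fetal calls were lost without either fetal library for the Krt7 region (adjusted p = 0.18 without fetal replicate 1 and 0.325 without fetal replicate 2), and without fetal replicate 2 or adult replicate 2 for the Krt18 one (adjusted p = 0.0682 and 0.143).

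Around Krt19, the region over its start gave 1.24 and 3.00 in adult basal, 19.8 and 22.0 in LP and 23.7 and 23.0 in ML nuclei, and 3.09 and 1.93 in fetal class 4 and 12.7 and 10.7 in class 9. It was higher in adult LP (3.05, SE 0.52, adjusted p = 2.07e-07) and in fetal class 9 (2.23, SE 0.60, adjusted p = 0.0111). The region chr11:100157315-100158314 before the gene had its highest levels in adult ML nuclei, at 32.9 and 25.2, and was lower in fetal class 9 (8.11 and 6.01) than in adult LP nuclei (19.6 and 16.7; -1.49, SE 0.42, adjusted p = 0.00676). Of the 11 tested Krt19 regions 4 were called lower in fetal class 9 than in adult LP nuclei, beside 7.88% of all distal regions. Another of the 3 most read Krt19 regions, chr11:100153381-100154380, gave 8.67 and 6.51 in adult basal and 18.3 and 19.1 in LP nuclei (1.28, SE 0.45, adjusted p = 0.0222), and fetal class 9 against adult LP did not pass there (adjusted p = 0.299). The fetal call at the start was lost without fetal replicate 1 (adjusted p = 0.0918) or fetal replicate 2 (adjusted p = 0.225), the stage call of the upstream region without fetal replicate 2 (-1.07, adjusted p = 0.127) or either adult library (adjusted p = 0.144 and 0.132) and without the low-count filter (adjusted p = 0.058), and the LP call of the last region without adult replicate 1 (adjusted p = 0.142) or adult replicate 2 (adjusted p = 0.431).

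Of the 15 tested regions near Krt7, 3 were called in LP against basal nuclei, all higher. Of all distal regions 24.5% were called either way and 13.0% higher, so this count is not particular to Krt7. The region chr15:101434527-101435526, past its end and within the hair keratin gene Krt87, gave 0.619 and 3.00 in adult basal, 9.38 and 8.17 in LP and 20.7 and 15.5 in ML nuclei, and 2.12 and 0.300 in fetal class 9. It was higher in LP than in basal nuclei (1.93, SE 0.70, adjusted p = 0.0273) and lower in fetal class 9 than in adult LP nuclei (-3.29, SE 0.70, adjusted p = 2.59e-04), where the fetal values rested on 6 and 2 reads. Without fetal replicate 2 the stage difference was -1.95, adjusted p = 0.0699, and the LP call was lost without adult replicate 1 (1.48, adjusted p = 0.496) or adult replicate 2 (3.79, adjusted p = 0.139). The most read region near Krt7, chr15:101387809-101388808, within the predicted genes Gm671 and Gm35853, passed in none of the 4 comparisons, with 24.1 and 18.02 in adult basal and 18.1 and 10.1 in LP nuclei. Near Krt8 the same held for chr15:101983783-101984782, in the Krt78 span, with 16.1 and 9.01 and 10.2 and 12.6.

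**Figure D4:**
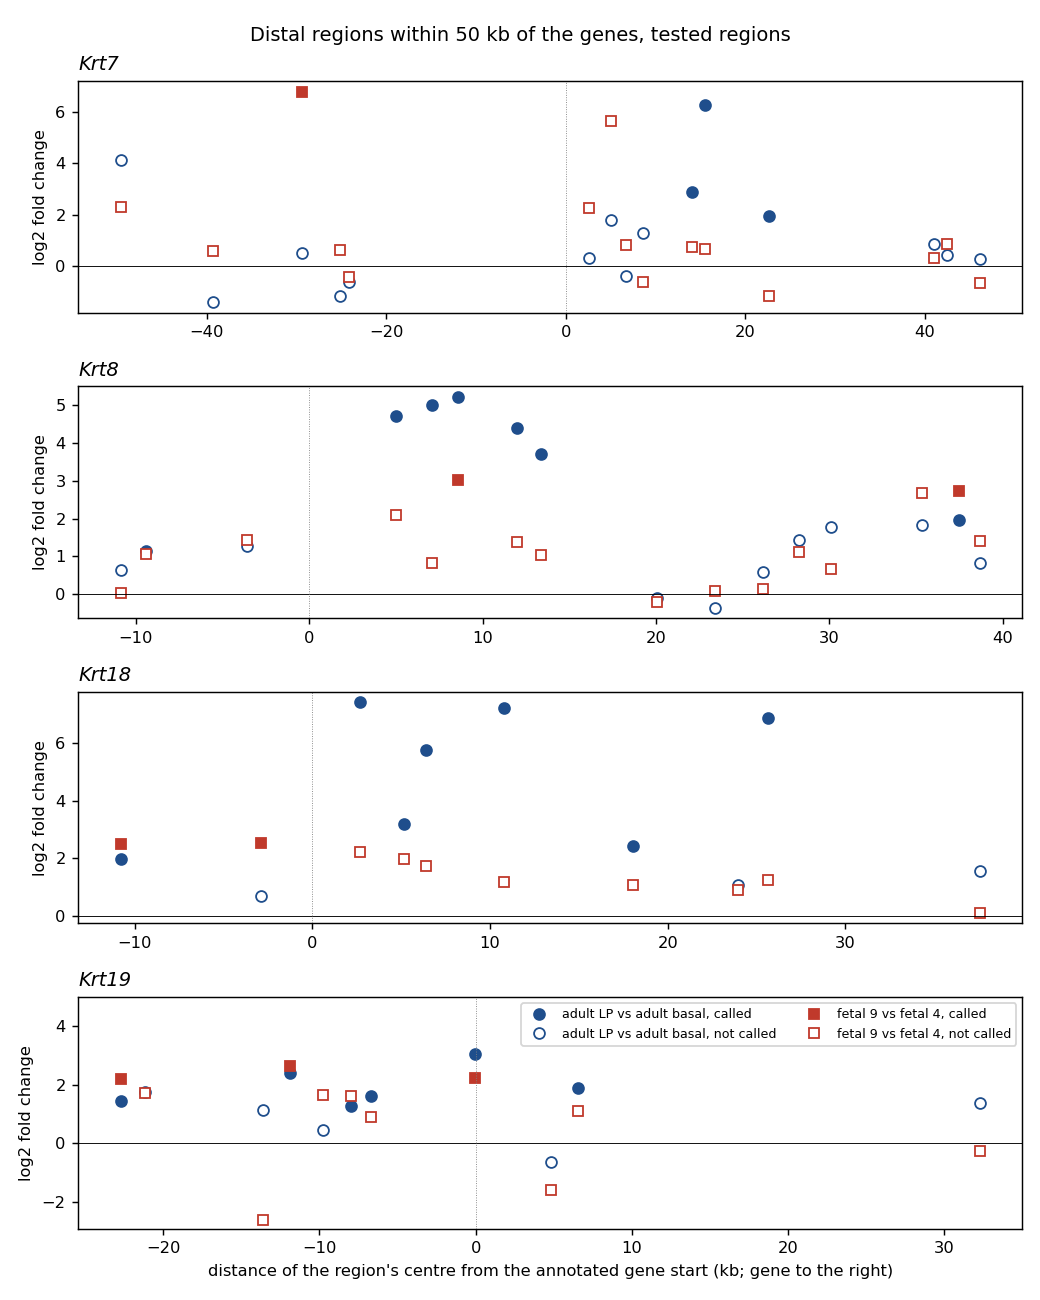
Log2 fold change (y axis) of the 52 tested distal regions within 50 kb of each gene against the distance of their centres from the annotated start (x axis, kb, gene to the right); circles are adult LP against basal, squares fetal class 9 against class 4, and filled points passed. All 24 filled circles and all 8 filled squares lie above 0, and regions with 0 reads in one group stand at the top with estimates that are no bounds.

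Cicero is a method that scores how closely the openness of 2 regions goes together across nuclei, and a score can be negative. The authors' deposited co-accessibility scores were made over all nuclei together, so that differences between classes enter the score. At a score of at least 0.1, 2.63% of 6359756 pairs were links, and 3.03% of those with a promoter region. Among pairs with a region that overlaps a gene window the share was 17.0% of 570 for Krt8, 13.6% of 738 for Krt18, 8.83% of 487 for Krt19 and 8.71% of 1710 for Krt7. The 4 genes all lay above that background, and the pairs were not matched for distance.

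Krt8 and Krt18 were joined by many links. Of 20 scored pairs of a region overlapping the Krt8 window and one overlapping the Krt18 window, 18 were links, with scores from 0.0875 to 0.525 over all 20. The strongest Krt8 link joined the region behind its 3′ end, chr15:101995237-101996236, to chr15:102034092-102035091 behind Krt18, with a score of 0.554 and their starts 38855 bases apart. The latter region lies outside the Krt18 window and is not among those 20 pairs. Krt7's strongest link, at 0.543, joined 2 regions of its own span, and that of Krt19, at 0.407, joined its start region to one past its end. No promoter-list region took part in a Krt19 link at this score.

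The remaining keratins put these values in context. Of 7 keratins of basal and stratified layers 6 were tested, and all 6 were lower in adult LP than in basal nuclei (all genes 12.4%), among them Krt5 (-4.59, SE 0.40, adjusted p = 1.48e-15), Krt14 (-2.95, SE 0.25, adjusted p = 1.94e-16) and Krt17 (-3.57, SE 0.24, adjusted p = 2.04e-20). These same 3 genes were higher in fetal class 9 than in adult LP nuclei (all genes 5.0%), Krt14 by 1.89 (SE 0.27, adjusted p = 2.64e-05), whereas the 4 simple keratin genes were lower there. In fetal class 4 against adult basal nuclei 3 of the 6, Krt16, Krt17 and Krt5, were lower (all genes 4.58%). In the interaction, 4 of the 6 keratins of basal and stratified layers had a less negative gap between fetal classes 9 and 4 than between adult LP and basal nuclei (all genes 3.06% with a larger value), Krt17 by 3.07 (SE 0.34, adjusted p = 4.15e-10). In fetal class 9 against class 4, 1 of the 6, Krt5, was lower, beside 4.88% of all genes (-1.57, SE 0.38, adjusted p = 0.00387).

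Of a list of 8 other keratins, not all of them of simple epithelium, 7 were tested. Krt78 and Krt79 were higher and Krt23 was lower in LP than in basal nuclei (all genes 10.1% and 12.4%), and Krt78 and Krt80 were higher in fetal class 9 than in class 4 (all genes 2.82%). The Krt78 value is not separate from that of Krt8, since the windows share reads. Of 4 epidermal differentiation keratins 3 were tested, Krt10 (0.46, SE 0.47, adjusted p = 0.555), Krt1 (0.30, SE 0.51, adjusted p = 0.738) and Krt77 (1.30, SE 0.68, adjusted p = 0.176), and these values in LP against basal nuclei did not pass. Krt77 was higher in adult ML (2.06, SE 0.64, adjusted p = 0.00854; all genes higher 15.6%) and in fetal class 4 (2.27, SE 0.67, adjusted p = 0.0328; all genes higher 3.89%) than in adult basal nuclei. The summed level of the 4 epidermal markers was 0.676 and 0.580 in fetal class 4 and 0.645 and 0.609 in adult basal nuclei. It was 0.896 and 0.961 in adult ML and 1.37 and 1.34 in adult LP nuclei. In ML class 11, 3 of the 4 (Lor, Ivl and Sbsn) were raised, 1 of them against the arithmetic mean of the other classes. The part of these genes in the fetal class 4 and ML results was not tested. Of 18 hair and inner root sheath keratins counted 8 were tested, and 3 of them, Krt73, Krt71 and Krt32, were lower in LP than in basal nuclei (all genes 12.4%). In ML against LP nuclei, Krt81 of this list was higher and Krt36 lower. Of the 8 other keratins above, Krt4 was higher and Krt23 and Krt80 lower there. Of the keratins of basal and stratified layers Krt16 and Krt6a were higher and Krt14 lower, beside 10.8% of all genes higher and 11.1% lower. A rise in ML over LP nuclei was thus not particular to Krt7. Krt87, which holds the region past Krt7, had the largest rise over the other classes of the genes ranked in ML class 2.

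Genes that anchor keratin filaments did not move as one group. Of 14 desmosome and hemidesmosome genes, 4 were higher and 4 lower in LP than in basal nuclei, beside 10.1% higher and 12.4% lower of all genes tested. Pkp2, a plakophilin of desmosomes, was higher (2.15, SE 0.21, adjusted p = 1.06e-13), and Pkp1, its relative of stratified epithelium, was lower (-1.09, SE 0.14, adjusted p = 7.56e-10). In fetal class 9 against class 4, 5 were higher and 1, Dst, was lower, beside 2.82% and 4.88% of all genes. Of 12 transcription factors of luminal and simple epithelium, 5 were higher and 1 lower in LP than in basal nuclei (all genes 10.1% and 12.4%), led by Ehf (2.52, SE 0.19, adjusted p = 7.25e-19) and Elf5 (2.04, SE 0.25, adjusted p = 3.42e-10). In fetal class 9 against class 4, 4 were higher (all genes 2.82%), Ehf again with the largest value (1.60, SE 0.19, adjusted p = 8.78e-09). In the interaction Ehf (-0.92, SE 0.28, adjusted p = 0.0328) and Elf5 (-1.16, SE 0.36, adjusted p = 0.0402) had a smaller gap in the fetus, as Krt8 did. Of all genes 2.11% were called with a negative interaction value, whichever sign their gaps had. Elf5 was also one of the LP markers, and Foxa1 one of the ML markers, from which classes were named. Ehf, Elf3 and Spdef were in the marker list of luminal cells in general. The counts of transcription factors and the Elf5 gap are thus in part not independent of that naming.

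Across the 26 sums of a class and a library with at least 50 nuclei, Krt8 and Krt18 followed each other most closely (Pearson r = 0.948), and the other pairs of members ranged from 0.680 for Krt18 and Krt19 to 0.797 for Krt7 and Krt19. These sums share libraries and classes, so the values describe the pattern and carry no test. Among genes outside 1 Mb with a mean of at least 50 reads, the most alike were, for Krt8, Spint1 (r = 0.932), Tcte2 (r = 0.928) and Kcnk1 (r = 0.921), and, for Krt18, Spint1 (r = 0.938), Plcg2 (r = 0.935) and Cldn3 (r = 0.934). For Krt7 they were 0610040J01Rik (r = 0.913), Rassf6 (r = 0.901) and Acsbg1 (r = 0.898), and for Krt19 Tmie (r = 0.912), Dapp1 (r = 0.896) and 1110059E24Rik (r = 0.893). Spint1, a membrane protease inhibitor of epithelia, led the list of both Krt8 and Krt18, and no gene was shared between the lists of Krt7 and Krt19.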

How the data were processed

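Single-nucleus ATAC-seq of 4 libraries was used. The authors deposited read lists with barcodes, 1000-base promoter and distal region lists, a table with the class and read count of each nucleus, and Cicero co-accessibility scores. Per the submitters' processing notes, Bowtie2, MACS2, bedtools and the build mm10 were used; parameters, duplicate removal and class methods are not given in the sources used here. The deposited read counts per nucleus equalled the reads of each barcode in the read lists, all at least 2000, and the deposited co-accessibility scores name no sample. The Cicero table of genes had 7846 columns that named no sample and were not used.

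Reads of listed nuclei that overlapped a gene window (RefSeq GRCm38.p6 span with 2000 bases on either side) or region were summed per library and group of classes, giving 14 sums of 7 groups. Nuclei are not replicates and doublets were not called. Features with a mean under 10 reads per sum were left out. edgeR 4.0.16 fitted the quasi-likelihood test with TMM factors in 2 models over the 14 sums. The model for comparisons within a stage and for the interaction had the library as a block, and the model for comparisons between stages had no block. The p-values were Benjamini-Hochberg adjusted over all features. SE is the absolute log2 fold change over the root of F. The script was tested on simulated data. DESeq2 1.42.0 and the other alternatives are given in the closing section. Same-numbered replicates come from the same library only within a stage, and across stages their deviations correlated at 0.147 for fetal class 9 with adult LP and 0.0613 for fetal class 4 with adult basal nuclei over genes. The labels call the samples biological replicates, with 2 a stage. The dispersion was fitted over all 14 sums and moderated across features, so p-values do not rest on the spread of the compared replicates alone. The model between stages treats sums of the same library as independent. Within the adult libraries the deviations of the groups correlated at 0.237 to 0.323 over genes. Within the fetal libraries they did so at 0.0830 for classes 9 and 4 and 0.0571 for classes 5 and 9.

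The 4 genes, the comparison lists and the classes grouped were chosen with earlier results of these data known. Named regions were all promoter regions in the windows, the 3 most read distal regions a gene within 50 kb and the called distal region with the largest change in each comparison; the most alike genes were the 3 with the highest Pearson r of log2 levels. The Krt7 bins inside the gene were chosen after their values were seen.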

Additional observations from a re-analysis of the deposited data

Results flagged for a closer look

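The Krt8 gap between fetal classes 9 and 4 differed from that between adult LP and basal nuclei by the test of the interaction, which brought it here. The gap of fetal class 9 over class 4 minus that of adult LP over basal nuclei was -0.92, SE 0.24, adjusted p = 0.00906 (edgeR quasi-likelihood test). The Krt8 level in fetal class 4 (4.69 and 4.54) lay above adult basal nuclei (3.03 and 3.83), and fetal class 9 (9.55 and 10.0) lay below adult LP nuclei (16.4 and 12.9). Of these 2 stage differences, that of fetal class 4 against adult basal nuclei did not pass, at 0.39, SE 0.21, adjusted p = 0.271, and that of fetal class 9 against adult LP passed, at -0.59, SE 0.16, adjusted p = 0.0183, but was lost without adult replicate 1, fetal replicate 1 or fetal replicate 2. The difference of gaps was -0.95, adjusted p = 0.029 with DESeq2, -0.65, adjusted p = 0.437 without adult replicate 1 and -1.35, adjusted p = 0.00823 without adult replicate 2.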

How the results depend on the processing

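All 4 genes stayed higher and called in adult LP and in adult ML against basal nuclei under every alternative run. Each contrast had 2 libraries a stage, and a single library left out leaves 1 sum for each group of that stage, whose spread is then taken from the other groups. The numbers below count all genes or regions called. With the replicate block taken out of the comparisons within a stage, the calls fell to 723 genes in fetal class 9 against class 4, 41 in class 5 against class 9, 473 in the interaction and rose to 58 promoter regions in fetal class 9 against class 4, and Krt8 lost its call in ML against LP (adjusted p = 0.0706) and in class 5 against class 9 (adjusted p = 0.119). Between the stages the replicate numbers were not shown to pair the libraries, and the replicate block there changed no gene count by more than 1.5 times. DESeq2 called 546 genes in the interaction, 588 promoter regions in LP against basal nuclei and 15 in fetal class 9 against class 4. Total reads as library size gave 116 and no low-count filter 73 in the last of these, and without the filter 3512 distal regions were called in fetal class 9 against adult LP and 1962 in fetal class 4 against adult basal nuclei. With total reads the median over all genes moved by over 0.1, to 0.13 in LP and 0.14 in ML against basal nuclei and 0.15 in fetal class 9 against class 4, and calls of 1730 higher and 2123 lower became 2546 and 1718, 2662 higher and 2886 lower became 3514 and 2370, and 481 higher and 834 lower became 990 and 529. For promoter regions 429 higher and 543 lower became 673 and 397 in LP against basal nuclei, 24 higher and 14 lower became 108 and 8 in fetal class 9 against class 4 and 167 higher and 139 lower became 113 and 244 in fetal class 4 against adult basal nuclei, and for distal regions 805 higher and 756 lower became 1110 and 665 in fetal class 9 against class 4. No call of the 4 genes changed with total reads.

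With the promoter-poor adult clusters alone the number of genes called was 2015 in LP and 3166 in ML against basal nuclei, 1740 in ML against LP, 824 in fetal class 9 against class 4, 143 in the interaction, 62 in class 5 against class 9, 599 in fetal class 9 against adult LP and 565 in fetal class 4 against adult basal nuclei. With the promoter-rich clusters the stage comparisons gave 2853 and 2576, and with fetal classes 4 and 12 and classes 9 and 5 joined they gave 2501 and 2294, and the interaction 1529. With 1 library left out, genes called were 1626 to 4748 (all libraries 3853) in LP against basal, 2745 to 6506 (all libraries 5548) in ML against basal, 1423 to 4751 (all libraries 3753) in ML against LP, 714 to 993 (all libraries 1315) in fetal class 9 against class 4, 218 to 792 (all libraries 882) in the interaction, 67 to 82 (all libraries 117) in class 5 against class 9, 630 to 1011 (all libraries 1628) in fetal class 9 against adult LP and 441 to 859 (all libraries 1446) in fetal class 4 against adult basal nuclei. Promoter regions were 107 to 1549 (all libraries 972), 4 to 12 (all libraries 38), 44 to 470 (all libraries 500) and 25 to 313 (all libraries 306), and distal regions 2299 to 13530 (all libraries 9559), 227 to 1048 (all libraries 1561), 1545 to 5156 (all libraries 5538) and 624 to 2719 (all libraries 3474), in LP against basal, fetal class 9 against class 4, fetal class 9 against adult LP and fetal class 4 against adult basal nuclei. A fit with 1 library left out holds fewer sums, and the cause of the changed counts was not tested.

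No value that changed sign had passed the test. For Krt19 in ML against LP it ran from -0.064 to 0.065 with 1 library left out and was -0.15 with promoter-poor clusters and -0.0025 with joined fetal classes. In the interaction Krt19 ran from -1.21 to 0.65 and was 0.40 without flanks, and Krt7 ran from -0.50 to 0.55 and was -0.030 with promoter-rich clusters and -0.086 with joined fetal classes. Krt18 in class 5 against class 9 ran from -0.30 to 0.021 and was 0.046 without flanks. In fetal class 4 against adult basal nuclei Krt18 ran from -0.47 to 0.20 and was 0.19 with promoter-rich clusters, and Krt19 ran from -1.93 to 0.027. With 1 library left out, the Krt8 start region in fetal class 9 against adult LP ran from -0.10 to 0.048 and the Krt18 start region from -0.29 to 0.050. In fetal class 4 against adult basal nuclei the Krt18 start region ran from -0.20 to 0.76 and the promoter region inside Krt18 from -1.07 to 0.45. Of the distal regions, chr15:101983783-101984782 in LP against basal nuclei ran from -0.69 to 0.53, and without the low-count filter it had 0.23 there and 0.18 in fetal class 9 against class 4. In the latter chr15:101387809-101388808 ran from -0.71 to 0.033, chr15:101434527-101435526 from -2.42 to 0.032 and chr15:101454374-101455373 from -0.54 to 1.36, and in fetal class 9 against adult LP chr15:101382470-101383469 ran from -0.11 to 0.055. In fetal class 4 against adult basal nuclei the ranges were -0.57 to 0.92 for the Krt19 start region, -0.94 to 1.503 for chr15:101434527-101435526, -4.46 to 5.69 for chr15:101995237-101996236, which has 0 reads in a library of either group, and -0.55 to 0.41 for chr15:102045780-102046779.

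At a Cicero score of at least 0.05 the linked share was 30.4% for Krt8, 32.2% for Krt18, 16.2% for Krt19 and 13.5% for Krt7, beside 5.15% of all pairs and 6.46% of those with a promoter region, and at 0.25 it was 5.26%, 2.57%, 1.23% and 1.81%, beside 0.514% of all pairs and 0.388% of those with a promoter region. Against the arithmetic mean of the other classes, an alternative chosen after seeing the data, the basal marker count of fetal class 4 and the LP marker counts of fetal classes 4, 9 and 5 were lower by 1, as were the LP count of class 7 and the ML count of class 2, and the markers of luminal cells in general raised in fetal class 5 fell from 5 to 2 of 7. Depth limits the fetal class 4 values, which rest on 12 and 18 reads over Krt7 and 19 and 15 over Krt19 in the 2 libraries.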
